A study of Mus musculus with 119 samples.

Results

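The dorsal medial striatum (DMS) of female mice that had received Δ9-tetrahydrocannabinol (THC) during adolescence was compared with that of female mice given vehicle. The comparison rests on 12 of the 119 RNA-seq libraries of the study, 6 with THC (FTL_291 to FTL_296) and 6 with vehicle (FTL_285 to FTL_290), chosen by region, sex and treatment in the sample labels. THC at 10 mg/kg or vehicle had been injected intraperitoneally once a day from postnatal day 28 to postnatal day 48, which makes 21 injections. Behavioral tests began on postnatal day 63, so the RNA was taken more than 2 weeks after the last dose and after the tests. The labels name no transgene or mutation, and the 12 libraries of male DMS, 6 per treatment, serve for comparison. By the labels the mice were 11 weeks old and of strain C57BL/6J, and the tissue is dorsolateral striatum in one field and DMS in the others. The methods of the study instead name C57BL/6NCrl mice, a later age and the DMS. Each library is 1 punch of tissue of mixed cells, and by the methods each comes from its own mouse. The labels give neither the mouse's number, the time of day nor the order of dissection, and a lower level in such tissue can mean fewer cells of a type or less RNA per cell, which cannot be told apart.

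The striatum is built mainly of medium spiny neurons, which either express the dopamine receptor gene Drd1 (direct pathway) or Drd2 (indirect pathway). CB1, the main brain receptor of THC, is made from Cnr1 and sits largely on axon terminals, where it lowers transmitter release. Synaptic activity in these neurons drives calcium, cAMP and ERK signalling, which switch on immediate early genes within minutes. These encode transcription factors such as FOS, EGR1 and NPAS4 and effectors such as ARC, and their RNA levels are widely used as a record of recent activity.

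All 12 libraries carried the markers of striatum. The 20 listed markers of medium spiny neurons, such as Ppp1r1b, summed to 17514 to 21885 CPM (expected counts scaled to a common library size) with vehicle and 18660 to 20329 CPM with THC. Library depth was 19236208 to 24583805 expected counts with vehicle and 20111410 to 24702752 with THC. Xist exceeded the summed level of 4 genes of the Y chromosome in 12 of 12 libraries. The vehicle library FTL_285 stood apart. Slc17a7, which encodes the vesicular glutamate transporter of cortical neurons, was at 199 CPM there and at 2.08 to 10.3 CPM in the other 11 libraries. Ttr, the transthyretin gene of the choroid plexus, was at 55.0 CPM in FTL_285 and at most at 0.277 CPM elsewhere. The 10 listed markers of septum and thalamus summed to 136.0 CPM in FTL_285, 64.6 CPM in the THC library FTL_292 and 40.1 to 46.3 CPM in the other 10. For the 11 choroid plexus and ependymal markers the values were 132 CPM in FTL_285, 80.9 CPM in FTL_292 and 19.2 to 30.8 CPM in the others. On the first principal component of the 12 libraries, which held 24.2% of the variance, FTL_285 (42.3) and FTL_292 (22.7) lay farthest from the rest (-14.6 to 3.07). Results are therefore also given without FTL_285, or without both.

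**Figure D1:**
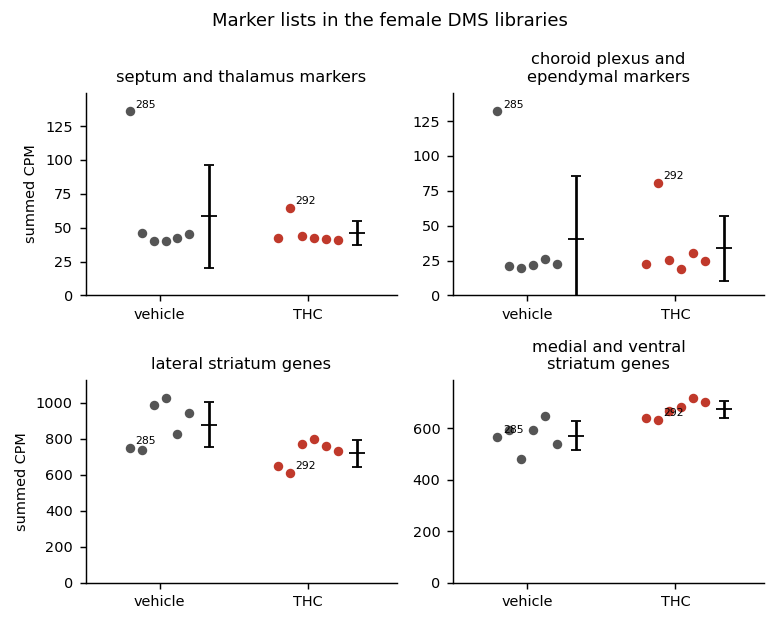
Summed CPM of 4 marker lists in the 6 vehicle (grey) and 6 THC (red) libraries of the female DMS, with the mean and SD beside each group (a bar that passes 0 is cut there). FTL_285 and FTL_292 are labelled and stand above the other libraries in the upper panels, and lateral striatum genes are lower and medial and ventral striatum genes higher in most THC libraries.

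THC and vehicle were compared gene by gene with edgeR's quasi-likelihood test, and a gene was called where its Benjamini-Hochberg adjusted p (FDR) was under 0.05 and its log2 fold change was 0.4 or more in either direction. Of 15800 genes tested, 2 were called (0.0127%), both lower with THC, namely Plk3 and Gm35755. Another gene, Ppp1r2, passed the FDR but not the fold (3 genes, 0.0190%). At an unadjusted p under 0.05, 817 genes were lower with THC (5.17% of those tested) and 589 higher (3.73%). All 6 THC libraries lay below all 6 vehicle libraries for 67 genes (0.424%) and above them for 28 (0.177%). DESeq2 called 25 of the 28735 genes to which it gave a p-value (0.0870%), 18 lower and 7 higher, and these included both edgeR genes. Some of the 28735, such as Drd3, got no adjusted p and could not be called, so this share and that of edgeR have unlike bases.

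Plk3, a polo-like kinase gene of the immediate early class on chromosome 4 (117128655 to 117133963, GRCm38), was at 5.02 to 6.59 CPM with vehicle (median 5.83) and at 3.11 to 4.23 CPM with THC (median 3.39). No THC library reached the lowest vehicle library. Its mean fell from 5.78 ± 0.648 to 3.52 ± 0.433 CPM (SD, n = 6). On the log2 scale the change was -0.72 with a standard error (SE) of 0.11 and an FDR of 0.0444 by edgeR. Gm35755, which the annotation lists as a processed pseudogene of chromosome 12 (38089902 to 38092463), was at 3.23 to 4.11 CPM with vehicle (median 3.56) and fell to 1.80 to 2.40 CPM with THC (median 2.104). The log2 fold change was -0.79 (SE 0.12, edgeR adjusted p = 0.0444), and RSEM, the authors' counting program, can divide reads between a pseudogene and its parent. Ppp1r2 on chromosome 16 encodes inhibitor-2 of protein phosphatase 1, the phosphatase that DARPP-32 (Ppp1r1b) also restrains in these neurons. Its level was 188 to 226 CPM with vehicle (median 209) and rose to 243 to 276.2 CPM with THC (median 253), without overlap (log2 fold change 0.31, SE 0.05, edgeR adjusted p = 0.0497). When each library was left out, Plk3 stayed between -0.78 and -0.67 on the log2 scale, but its adjusted p ranged from 0.0213 to 0.201. No gene was called in the fits without FTL_287, FTL_288, FTL_289, FTL_290, FTL_292, FTL_293, FTL_294, FTL_295 or FTL_296, whereas 1 was called without FTL_291 (Plk3), 6 without FTL_285 and 7 without FTL_286.

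Below these lay genes without an adjusted p under 0.05 by edgeR but with separate groups. Pou2f2, a POU-domain transcription factor gene, was at 11.7 to 16.5 CPM with vehicle and 17.3 to 20.1 CPM with THC (log2 fold change 0.43, adjusted p = 0.076 by edgeR and 0.000491 by DESeq2). Exph5, which encodes a partner of the vesicle protein RAB27, was at 2.54 to 6.41 CPM with vehicle and 1.13 to 2.43 CPM with THC. Its highest level was in FTL_285, without which the log2 fold change was -0.96 instead of -1.18. Dab2ip, whose product restrains RAS, was at 125 to 152 CPM and 108 to 119 CPM (log2 fold change -0.28, edgeR adjusted p = 0.076). The 12 genes with the smallest p in each direction had edgeR adjusted p-values up to 0.181 among the lower and 0.218 among the higher genes. Of those lower, Smad4 (a mediator of TGF-β signals), Tbc1d30, Trak1 (a mitochondrial transport adaptor), Mtcl1, Gramd1b, Slc41a1 and Stat6 were below the vehicle range in 6 of 6 THC libraries and Ryr1, a calcium release channel, in 5. Of those higher, Arl4a, E2f5 and C530005A16Rik were above it in 6 of 6, Hs6st2, Kctd4, Khdrbs2, Zfp64, Tgfb3 and Retn in 5, and Ftx, a non-coding RNA of the X inactivation center, in 4.

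Plk3 was the member called among 27 listed immediate early genes. All 27 were tested, and 12 were lower with THC at an unadjusted p under 0.05 and 0 higher, beside 5.17% and 3.73% of all genes. Their median log2 fold change was -0.35, against 0.00021 for all genes, and 25 of 27 were negative. The 12 were Plk3, Fosb, Trib1, Npas4, Jun, Egr4, Egr3, Klf4, Egr1, Arc, Nr4a2 and Fos, with log2 fold changes from -0.21 for Egr3 to -1.38 for Npas4. Nr4a2, an orphan nuclear receptor gene, had -1.002, or -0.53 without FTL_285. Of these, Plk3 had an edgeR adjusted p under 0.05, and Fosb came next with 0.256. The promoters of listed members were searched for letters that the comparison did not use. TGACG, the core of the element bound by the cAMP-responsive factor CREB, is shown in capitals (or as CGTCA where it lies on the other strand) in the 250 bases before the start of Plk3, the called gene, and of Npas4, Fos and Fosb, the transcription factor genes described next. The sequences are from RefSeq (GRCm38.p6), written 5′ to 3′ along the gene. They cover chr4:117133964-117134213 (minus strand), chr19:4989972-4990221 (minus strand), chr12:85473640-85473889 (plus strand) and chr7:19310046-19310295 (minus strand).
Plk3: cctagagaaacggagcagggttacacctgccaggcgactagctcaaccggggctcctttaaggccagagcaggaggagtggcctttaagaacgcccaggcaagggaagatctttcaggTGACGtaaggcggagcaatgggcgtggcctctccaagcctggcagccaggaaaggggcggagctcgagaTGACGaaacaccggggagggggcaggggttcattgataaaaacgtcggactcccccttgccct
Npas4: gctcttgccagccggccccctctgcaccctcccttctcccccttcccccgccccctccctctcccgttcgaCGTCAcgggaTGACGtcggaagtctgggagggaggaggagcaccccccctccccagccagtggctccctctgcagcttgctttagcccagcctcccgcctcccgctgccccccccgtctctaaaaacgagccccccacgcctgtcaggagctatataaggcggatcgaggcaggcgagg
Fos: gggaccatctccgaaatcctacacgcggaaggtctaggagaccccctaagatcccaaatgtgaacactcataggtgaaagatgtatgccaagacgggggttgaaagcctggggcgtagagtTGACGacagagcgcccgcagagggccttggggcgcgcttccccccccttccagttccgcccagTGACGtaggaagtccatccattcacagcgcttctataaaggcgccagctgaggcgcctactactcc
Fosb: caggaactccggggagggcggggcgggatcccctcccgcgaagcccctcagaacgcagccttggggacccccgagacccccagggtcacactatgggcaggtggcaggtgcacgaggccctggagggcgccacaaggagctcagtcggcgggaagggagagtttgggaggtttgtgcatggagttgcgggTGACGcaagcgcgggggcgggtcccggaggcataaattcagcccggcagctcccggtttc
The first letter of these matches lay 132 and 63 bases before the start of Plk3, 179 and 169 before Npas4, 129 and 66 before Fos and 60 before Fosb. TGACG on either strand was in this window of 16 of the 21 listed immediate early genes with a promoter in the table (76.2%) and of 19.8% of all 27025 genes. Of the 12 lower genes, Arc, Egr1, Egr3 and Trib1 were not searched, 7 of the other 8 held it (87.5%) and Jun did not. Of the 13 searched members with an unadjusted p of 0.05 or more, 9 held it (69.2%). It was searched after the values were seen. The full element TGACGTCA, which contains TGACG, was in 4 of the 21 (19.0%, Btg2, Dusp1, Maff and Plk2, of which none had an unadjusted p under 0.05) and in 1.77% of all genes. A match describes these letters and not a bound site.

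Npas4, a transcription factor gene switched on by calcium entry, was at 7.23 to 38.1 CPM with vehicle (median 25.8) and at 7.09 to 15.8 CPM with THC (median 7.73). The 4 vehicle libraries FTL_285 to FTL_288 lay at 25.4 CPM or more, above all THC libraries, while FTL_289 and FTL_290 lay at 11.8 and 7.23 CPM, within the THC range. The log2 fold change was -1.38 (SE 0.40, edgeR adjusted p = 0.33). Fos was at 2.24 to 8.86 CPM with vehicle (median 3.85) and 0.798 to 5.14 CPM with THC (median 1.88). Its 2 highest levels were in the vehicle libraries FTL_286 and FTL_285 and the next in the THC library FTL_291 (log2 fold change -1.15, SE 0.47, edgeR adjusted p = 0.519). Arc, whose product moves glutamate receptors out of the synapse, was at 40.9 to 90.0 CPM with vehicle (median 62.2) and 27.8 to 72.8 CPM with THC (median 35.1). Again FTL_291 was within the vehicle range, FTL_293 was level with its lowest library at 40.9 CPM, and the other 4 THC libraries were below it (log2 fold change -0.69, SE 0.26, edgeR adjusted p = 0.476).

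Fosb, which also gives rise to the long-lived ΔFosB, was at 11.8 to 15.4 CPM with vehicle (median 13.03) and 7.62 to 12.2 CPM with THC (median 10.3), and 5 of 6 THC libraries were below the vehicle range (log2 fold change -0.39, SE 0.10, edgeR adjusted p = 0.256). Egr1 was at 136 to 216 CPM with vehicle (median 182) and at 88.5 to 121 CPM in 5 THC libraries, with 195 CPM in FTL_291 (log2 fold change -0.58, SE 0.20, edgeR adjusted p = 0.404). Egr4 was at 30.8 to 49.4 CPM with vehicle (median 41.0) and at 20.3 to 27.5 CPM in 5 THC libraries, with 45.2 CPM in FTL_291 (log2 fold change -0.55, SE 0.18, edgeR adjusted p = 0.392). The same library had the highest level of the 12 for Junb (106 CPM) and Nr4a1 (80.9 CPM). The summed level of the 27 genes was 1158 to 1375 CPM with vehicle, 1013 to 1068 CPM in 5 THC libraries and 1390 CPM in FTL_291. Without FTL_291, 16 of the 27 genes were lower at an unadjusted p under 0.05. Without FTL_285 there were 9 and without FTL_285 and FTL_292 there were 8, and the unadjusted edgeR p of Fos was then 0.0844 and 0.127. Leaving out 1 library in turn gave 9 to 16 genes lower and 0 higher. Jund, Plk2, Ier5, Klf2, Maff and Gadd45b had log2 fold changes between -0.07 and 0.02.

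**Figure D2:**
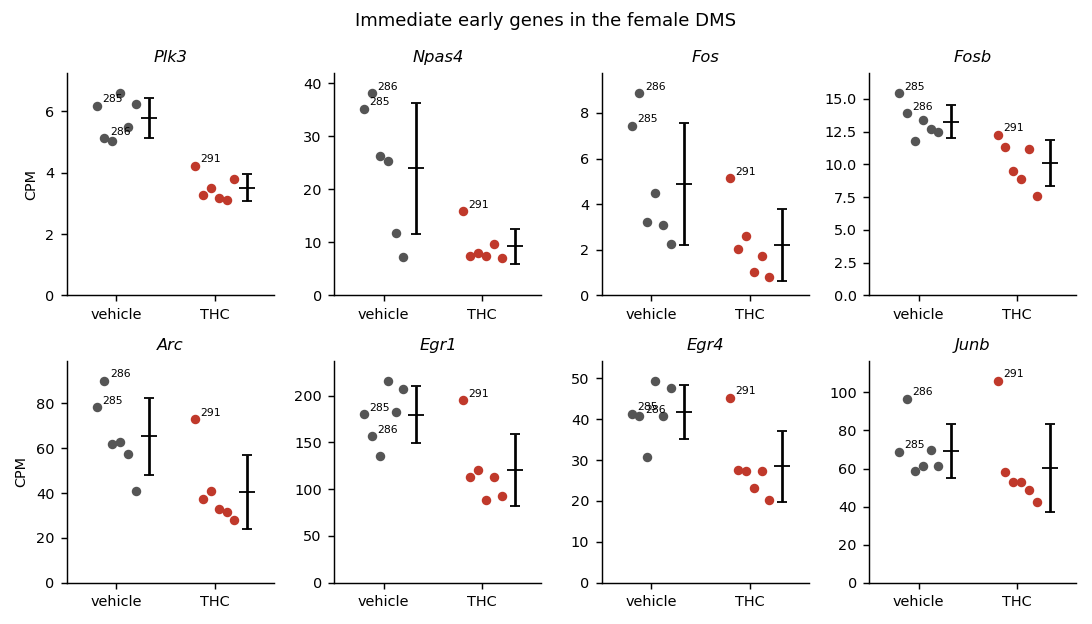
CPM of 8 immediate early genes in the 6 vehicle (grey) and 6 THC (red) libraries of the female DMS, with the mean and SD beside each group and 3 libraries labelled by number. Plk3 separates the groups, and for Arc, Egr1, Egr4 and Junb the THC library FTL_291 lies within or above the vehicle range while the other THC libraries lie lower.

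Several genes are switched on by ERK signalling and then restrain it. Of 19 listed genes 18 were tested, and 8 were lower with THC at an unadjusted p under 0.05 and 0 higher, with a median log2 fold change of -0.18. Here and for the lists that follow, 5.17% of all genes were lower and 3.73% higher by the same rule, which is the background of each count. Spred2, an inhibitor of RAF activation, was at 57.4 to 83.9 CPM with vehicle (median 73.3) and 45.2 to 60.0 CPM with THC (median 49.8), and 5 of 6 THC libraries were below the vehicle range (log2 fold change -0.49, SE 0.10, adjusted p = 0.198 by edgeR and 0.000943 by DESeq2). Etv6, an ETS transcription factor gene, was at 12.01 to 17.4 CPM with vehicle and 9.51 to 13.3 CPM with THC (log2 fold change -0.42, edgeR adjusted p = 0.198). Spred3 (-0.28), Spred1 (-0.22), Etv5 (-0.39), Spry4 (-0.34) and Dusp7 (-0.12) were also among the 8. Dusp6, the phosphatase of ERK, had a log2 fold change of -0.37 with a SE of 0.23. Without FTL_285 the count was 7, and without FTL_285 and FTL_292 it was 5, with 1 gene higher there and in the fits without FTL_288 or FTL_292 alone.

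Sik2, a salt-inducible kinase gene whose product keeps the CREB coactivators CRTC out of the nucleus, was at 38.6 to 62.5 CPM with vehicle (median 45.6) and 27.8 to 37.4 CPM with THC (median 30.7). The groups did not overlap (log2 fold change -0.56, SE 0.11, adjusted p = 0.198 by edgeR and 0.000629 by DESeq2). Of the 18 listed CREB, CRTC and SIK genes, 3 were lower at an unadjusted p under 0.05 (Sik2, Ep300 and Pde4d) and 1 higher (Pde4b), with a median of -0.02. Without FTL_292 or without FTL_294, 1 was lower.

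Genes that follow activity later lay on both sides. Of 20 listed, 19 were tested, 2 were lower at an unadjusted p under 0.05 and 3 higher (median -0.06). Pcsk1, a prohormone convertase gene, was at 13.7 to 22.0 CPM with vehicle and 10.5 to 15.0 CPM with THC (log2 fold change -0.47, edgeR adjusted p = 0.256), and Homer1, a scaffold gene of the synapse, had a log2 fold change of -0.26. Scg2 (0.20), Cdkn1a (0.35) and Pdyn (0.46) were on the other side. Without FTL_290, FTL_291 or FTL_292, 1 was lower.

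Among opioid genes, Pdyn encodes prodynorphin, the precursor of dynorphins that direct pathway neurons release, and Oprk1 encodes their κ receptor. Pdyn was at 62.2 to 95.7 CPM with vehicle (median 80.8) and 87.3 to 124 CPM with THC (median 109.9), and 5 of 6 THC libraries were above the vehicle range. Its mean was 79.2 ± 14.2 CPM with vehicle and 109.2 ± 13.8 CPM with THC (SD, n = 6), a log2 fold change of 0.46 (SE 0.12, adjusted p = 0.281 by edgeR and 0.0123 by DESeq2). Oprk1 was at 39.5 to 65.3 CPM with vehicle (median 53.5) and 57.7 to 71.3 CPM with THC (median 67.1), with 4 THC libraries above the vehicle range (log2 fold change 0.33, SE 0.11, edgeR adjusted p = 0.354). Of the 7 genes tested of 8 listed, these 2 were higher at an unadjusted p under 0.05 and 0 were lower, with a median of 0.12. Penk, the enkephalin precursor gene of indirect pathway neurons, had log2 fold change 0.00 (SE 0.07) with medians of 1804 and 1803 CPM. Oprm1, the μ receptor gene, had 0.32 (SE 0.16). Without FTL_285, 3 genes were higher and 1 was lower, and 1 was lower without FTL_293.

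The clock genes form a loop in which ARNTL and CLOCK drive the Per and Cry genes, whose products then block them. Per2 was at 27.5 to 52.5 CPM with vehicle (median 36.9) and 20.2 to 28.5 CPM with THC (median 23.5). Only 2 THC libraries, FTL_292 and FTL_295, reached the vehicle range (log2 fold change -0.63, SE 0.15, adjusted p = 0.247 by edgeR and 0.00322 by DESeq2). Arntl, whose RNA peaks at the opposite time of day, was at 37.4 to 63.6 CPM with vehicle (median 46.2) and 32.2 to 41.7 CPM with THC (median 36.8), with a log2 fold change of -0.37 (SE 0.11, edgeR adjusted p = 0.33). For both genes FTL_288 had the highest level. Cry2 (-0.09) and Rora (-0.16) were also lower at an unadjusted p under 0.05, which makes 4 of 12 core clock genes lower and 0 higher (median -0.06). The count was 2 without FTL_291, FTL_292 or FTL_296. Per1, Nr1d1, Nr1d2 and Cry1 had log2 fold changes between -0.11 and 0.00. Among 10 clock output genes 2 were lower (Hlf -0.11 and Bhlhe40 -0.31) and 0 higher, and Dbp, a strong output of the clock, was at -0.02 (SE 0.08). For Bhlhe40 all THC libraries (22.0 to 26.6 CPM) were below the vehicle libraries (27.0 to 40.5 CPM), with the highest level in FTL_285, without which the log2 fold change was -0.20. The E-box letters CACGTG, which ARNTL and CLOCK can bind, were found on either strand in the 250 bases before the start of 5 of the 19 core clock and clock output genes in the RefSeq table (26.3%, Bhlhe41, Ciart, Cry1, Per1 and Tef, none of them among the 6 lower ones, of which Per2 and Bhlhe40 were not searched) and of 6.86% of all genes. They were in 5 of the 21 immediate early genes (23.8%), namely Dusp1, Egr2, Gadd45b, Klf4 and Maff. The D-box letters TTATGTAA were in Per3 alone of the 19 (5.26%), in 0 of the 21 and in 0.977% of all genes. TGACG was in 6 of the 19 (31.6%) and TGACGTCA in Hlf alone (5.26%).

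Of the endocannabinoid genes, 16 of 20 listed were tested, and 3 were lower with THC at an unadjusted p under 0.05 and 0 higher (median -0.01). Cnr1 was at 233.9 to 392.2 CPM with vehicle (median 313.2) and 177 to 280.8 CPM with THC (median 224), and 3 THC libraries were below the vehicle range (log2 fold change -0.48, SE 0.14, adjusted p = 0.332 by edgeR and 0.102 by DESeq2). Dagla, the lipase that makes the endocannabinoid 2-arachidonoylglycerol, was at 84.5 to 105 CPM with vehicle (median 92.2) and at 72.4 to 79.3 CPM in 5 THC libraries, with 94.9 CPM in FTL_296 (log2 fold change -0.22, SE 0.07, edgeR adjusted p = 0.315). Plcb1, the phospholipase upstream of it, was at 445 to 520.4 CPM with vehicle and 396 to 470.3 CPM with THC (log2 fold change -0.15, edgeR adjusted p = 0.36). Genes of breakdown were not among the 3. Mgll, which degrades 2-arachidonoylglycerol, had 0.10 (SE 0.06), and Faah, which degrades anandamide, had -0.24 (SE 0.20), a value that was 0.00 without FTL_285. Without FTL_285, FTL_286, FTL_287, FTL_294, FTL_295 or FTL_296, 1 listed gene was higher.

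**Figure D3:**
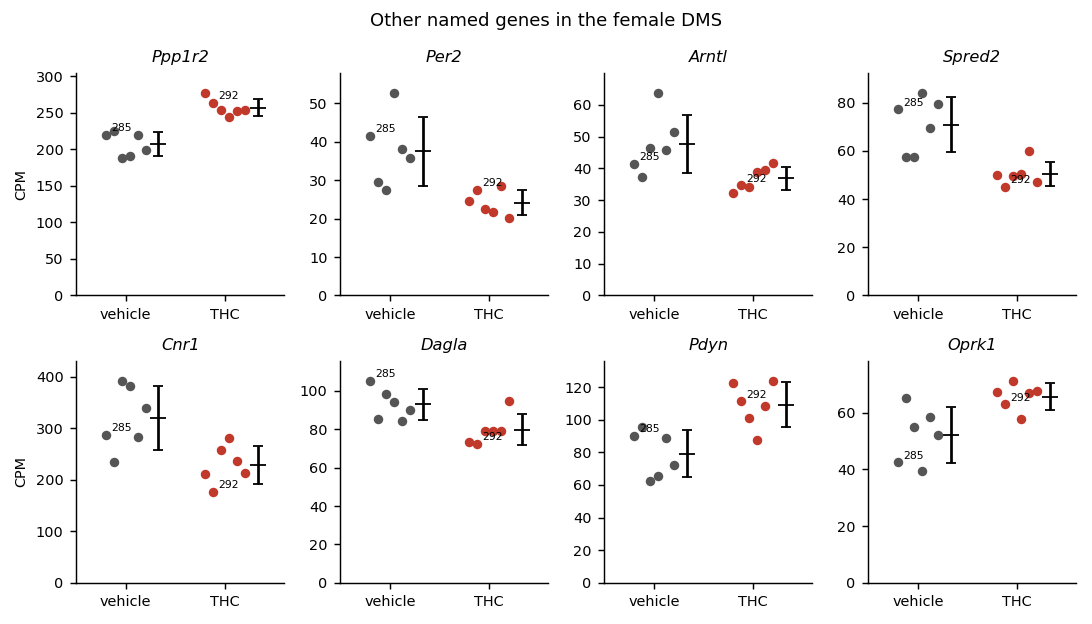
CPM of 8 further genes in the 6 vehicle (grey) and 6 THC (red) libraries of the female DMS, with the mean and SD beside each group and FTL_285 and FTL_292 labelled. Ppp1r2 separates the groups, Per2, Arntl, Spred2, Cnr1 and Dagla lie lower and Pdyn and Oprk1 higher in most THC libraries, with overlap.

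Cnr1 is also graded across the striatum and is highest laterally. Listed genes of position leaned apart between the groups, although 0 of them were called by edgeR or DESeq2. The 4 listed lateral genes were all negative (Cnr1 -0.48, Gpr155 -0.33, Coch -0.20 and Reln -0.04), 2 of them at an unadjusted p under 0.05, and summed to 735 to 1023 CPM with vehicle (median 884) and 612 to 799.7 CPM with THC (median 743). The 7 listed medial and ventral genes were all positive, from 0.01 for Trh to 1.18 for Cartpt, with 2 higher at an unadjusted p under 0.05 (Crym and Cartpt) and a median of 0.34. They summed to 481 to 649 CPM with vehicle (median 579) and 631 to 715 CPM with THC (median 675). Crym, the μ-crystallin gene of medial striatum, was at 176 to 248.8 CPM with vehicle (median 222) and 227 to 273.3 CPM with THC (median 262.3), a log2 fold change of 0.27 (SE 0.07, edgeR adjusted p = 0.258). Drd3, the dopamine D3 receptor gene of ventral striatum, is not among the 7. It was at 0.211 to 0.877 CPM with vehicle (median 0.613) and 1.002 to 1.496 CPM with THC (median 1.29). These ranges did not overlap (log2 fold change 1.06, SE 0.27, edgeR adjusted p = 0.247). Without FTL_285, 4 medial and ventral genes were higher, and without FTL_285 and FTL_292 there were 5 (Crym, Wfs1, Dlk1, Synpr and Cartpt), while 3 of the lateral genes were lower in both fits. In the male DMS the medians of the lists were 0.01 (lateral) and -0.10 (medial and ventral), and 0 of their genes had an unadjusted p under 0.05. The part of punch position in the values of Cnr1, Drd3, Pdyn and the other genes was not tested.

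**Figure D4:**
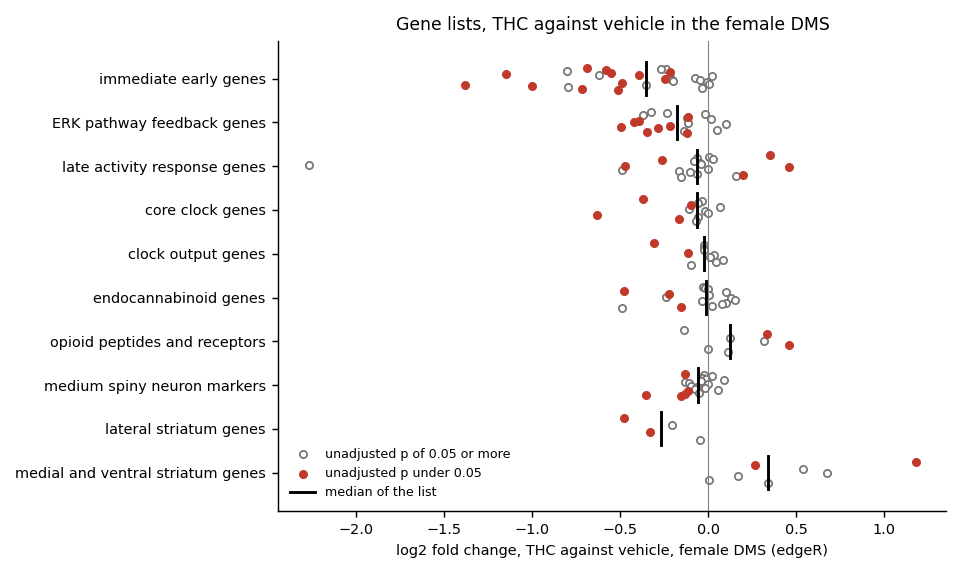
Log2 fold change of THC against vehicle in the female DMS (edgeR) for the tested members of 10 gene lists, 1 point per gene, filled red at an unadjusted p under 0.05, with the median of each list as a black bar. Immediate early genes and ERK pathway feedback genes lie mostly below 0, with medians of -0.35 and -0.18, and medial and ventral striatum genes lie above 0, with a median of 0.34.

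The genes that mark the neurons' identity came next. Drd1 had medians of 326.7 CPM with vehicle and 324.9 CPM with THC (log2 fold change -0.01, SE 0.07), and FTL_285 was the lowest at 249.1 CPM. Drd2 had medians of 281.2 and 257.9 CPM (log2 fold change -0.09, SE 0.04, edgeR adjusted p = 0.607). Of 8 direct pathway markers 0 were lower and 1 was higher at an unadjusted p under 0.05 (Pdyn), and of 7 indirect pathway markers 1 was lower (Grik3, -0.16, or -0.09 without FTL_285) and 0 higher. The lower direct pathway markers were 1 without FTL_285 and 2 without FTL_293. The lower indirect pathway markers were 3 without FTL_285, 2 without FTL_288 and 0 without FTL_287, FTL_291, FTL_293 or FTL_294. Of the 20 medium spiny neuron markers 5 were lower (Sh3rf2, Rasd2, Scn4b, Actn2 and Syndig1l) and 0 higher, with a median of -0.06. Sh3rf2 was at 73.7 to 108 CPM with vehicle and 58.3 to 73.6 CPM with THC, without overlap (log2 fold change -0.35, edgeR adjusted p = 0.28). The count of lower markers was 11 without FTL_285 and 10 without FTL_285 and FTL_292. It was 1 without FTL_287 or FTL_292 and 2 without FTL_288, FTL_290, FTL_295 or FTL_296, and 1 marker was higher without FTL_292. Of 22 tested dopamine receptor and G protein genes (23 listed), 3 were lower (Gnb1, Gnao1 and Adcy1, the last at -0.21, or -0.13 without FTL_285) and 3 higher (Drd3, Gnai3 and Rgs10), and the numbers were 6 and 4 without FTL_285.

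P2ry1, a receptor for ADP, was at 8.62 to 17.0 CPM with vehicle (median 13.7) and 16.6 to 20.6 CPM with THC (median 19.2), with a log2 fold change of 0.50 (adjusted p = 0.28 by edgeR and 0.0326 by DESeq2). It was 1 of 9 tested adenosine and P2Y receptor genes (10 listed) higher at an unadjusted p under 0.05, and P2ry6 was lower (-0.40). None of the 9 was lower without FTL_290, FTL_291 or FTL_292, and 2 were without FTL_285. Of 26 tested glycolysis and ketone genes (27 listed) 3 were lower, namely Me2, Pfkfb3 and Me1. Me2, the mitochondrial malic enzyme gene, was at 25.05 to 41.9 CPM with vehicle (median 34.1) and 19.98 to 26.0 CPM with THC (median 24.5), with 5 THC libraries below the vehicle range (log2 fold change -0.47, adjusted p = 0.247 by edgeR and 0.0146 by DESeq2). Pfkfb3, an enzyme gene that speeds glycolysis, was at 44.5 to 73.4 CPM and 33.9 to 46.8 CPM (log2 fold change -0.42, edgeR adjusted p = 0.304). Of 15 glucocorticoid response genes 2 were lower (Nr3c1 and Zbtb16, the latter at -0.55, or -0.23 without FTL_285) and 3 higher, among them Cdkn1a and Sult1a1. The 2 lower became 1 without FTL_285, FTL_287, FTL_288, FTL_290, FTL_293 or FTL_294 and 0 without FTL_291, FTL_292 or FTL_296.

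Other cell types were set beside these values. At an unadjusted p under 0.05, 0 of 12 astrocyte and 0 of 12 microglia markers were lower or higher, and 1 of 16 oligodendrocyte markers was lower (Mag). That last count was 5 without FTL_285 or FTL_294, 6 without FTL_286, 4 without FTL_289 and 2 without FTL_288, FTL_295 or FTL_296, and the list summed to 6642 to 8672 CPM with vehicle and 6379 to 7452 CPM with THC. Of 12 endothelial and mural markers 3 were lower (Flt1, Cdh5 and Abcb1a), or 1 without FTL_286, with sums of 303.8 to 339.9 CPM and 294.2 to 315.3 CPM. Of 12 tested interneuron markers (14 listed) and 7 tested pallidal markers (8 listed), Pvalb (-0.44) was the single gene lower and 0 were higher. The count of lower interneuron markers was 3 without FTL_285 and 2 without FTL_286. The higher ones were 1 for interneuron markers without FTL_288, FTL_292, FTL_293 or FTL_295 and 1 for pallidal markers without FTL_292. Lypd1 was the 1 higher of 8 striosome markers and Rasgrp2 the 1 lower of 4 matrix markers. The striosome count was 4 without FTL_286 and 0 without FTL_287, FTL_288, FTL_292 or FTL_296, and the matrix count was 2 without FTL_285, FTL_294 or FTL_295 and 0 without FTL_287, FTL_288, FTL_292 or FTL_296. Of 13 mitochondrially encoded genes mt-Atp6 was higher (0.23) and 0 were lower. Of 7 tested cortical projection neuron markers (12 listed) Nrgn was lower (-0.24), or 2 genes without FTL_286, FTL_287, FTL_288, FTL_289 or FTL_290. The list summed to 2486 to 3138 CPM with vehicle and 2218 to 2466 CPM with THC, without overlap. Neurod6, which defines these neurons, was at 0.842 CPM or less in 11 libraries and at 10.8 CPM in FTL_285. Slc17a7 was also low outside FTL_285. The sums therefore rest mostly on other listed members and are not a measure of cortical neurons alone. Of 9 tested septum and thalamus markers and 4 tested choroid plexus and ependymal markers, 0 were lower or higher. Without FTL_285, 1 septum and thalamus marker and 1 cortical marker were higher. Without FTL_288, 1 microglia and 1 endothelial or mural marker were higher, and without FTL_296, 1 matrix marker. There was 1 lower astrocyte marker without FTL_295 or FTL_296, 1 lower microglia marker without FTL_285 or FTL_295 and 1 lower mitochondrial gene without FTL_285. The part of these cell types in the results was not tested. The study named 13 key driver genes for female DMS modules tied to both THC and human cannabis use disorder. It found them on a gene network built from other data. The modules came from these same libraries, so the list is not independent of them. The list held 2 lower genes (Adcy1 and Erbb3) and 0 higher. Its count was 0 without FTL_287, FTL_294 or FTL_295, 1 without FTL_290, FTL_291 or FTL_293 and 5 without FTL_289.

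The same contrast in the male DMS gave 0 called genes of 16093 with edgeR and 0 with DESeq2. Unadjusted p-values under 0.05 were given to 1.93% of the genes, and 148 genes were higher (0.920%). Of the 26 immediate early genes tested in males, 0 were lower and 6 higher (Fosb, Junb, Egr1, Egr2, Egr3 and Arc), with a median log2 fold change of 0.17. Arc was at 38.6 ± 11.8 CPM with vehicle and 57.7 ± 17.96 CPM with THC in males (SD, n = 6), and at 65.2 ± 17.1 and 40.5 ± 16.5 CPM in females. Fosb was at 10.4 ± 1.22 and 12.2 ± 1.20 CPM in males, against 13.3 ± 1.28 and 10.1 ± 1.74 CPM in females. For both genes the male vehicle mean was below the female vehicle mean, and the male THC mean was above the female THC mean. Levels were scaled within each sex, so male and female means are not on 1 common scale. Plk3 had a male log2 fold change of 0.06 (SE 0.14), with 4.54 ± 0.910 and 4.71 ± 0.618 CPM.

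The difference of the THC effect between the sexes was tested as an interaction over the 4 groups of the DMS. With edgeR 0 of 16605 genes were called, the smallest adjusted p being 0.189 for Sik2, and 980 had an unadjusted p under 0.05 (5.90%). DESeq2 called 3 genes, Sik2 (adjusted p = 0.00419), Spred2 (0.0364) and Gm35755 (0.0364). Sik2 was at 31.4 ± 0.999 CPM with vehicle and 33.8 ± 1.42 CPM with THC in males, and at 46.6 ± 8.79 and 31.6 ± 3.63 CPM in females. With levels scaled within each sex, the female vehicle libraries were the highest of the 4 groups. Spred2 was at 52.7 ± 4.65 and 55.9 ± 4.43 CPM in males and 70.8 ± 11.4 and 50.4 ± 5.12 CPM in females. Among the 27 immediate early genes 15 had an unadjusted interaction p under 0.05, and for all 15 the male coefficient was the larger. Their smallest edgeR adjusted p was 0.322, for Plk3. The list counts were 5 of 18 for ERK pathway feedback genes, 4 for endocannabinoid genes (Cnr1, Cnrip1, Dagla and Ptpn22, of 18 tested), 3 of 12 for core clock genes (Per2, Arntl and Rorb) and 1 of 7 for medial and ventral genes (Crym).

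**Figure D5:**
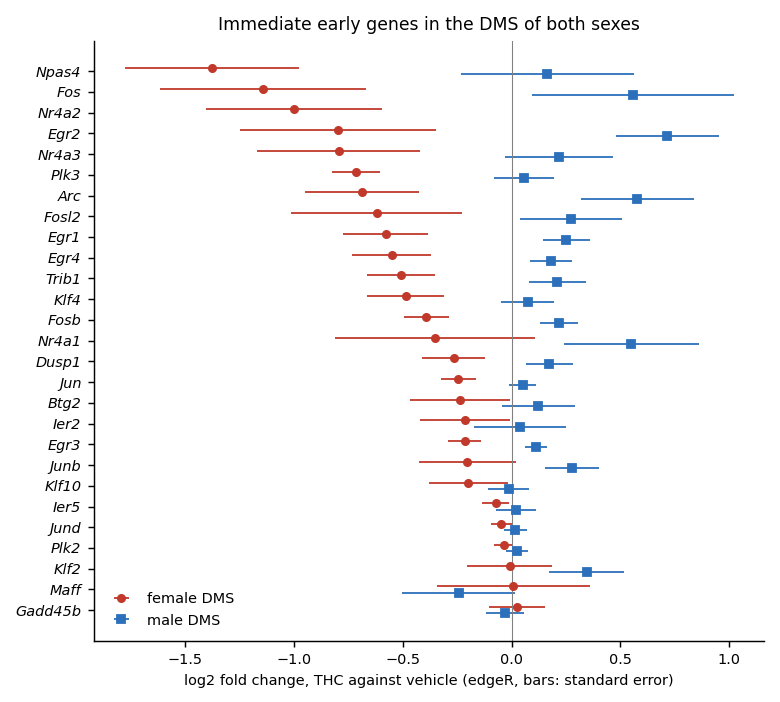
Log2 fold change of THC against vehicle for 27 immediate early genes in the female (red circles) and male (blue squares) DMS, with standard errors as bars (edgeR), ordered by the female value. Nr4a2 has no male point because it did not pass the filter there, and most female points lie left of 0 and most male points right of it.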

How the data were processed

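Polyadenylated RNA of 1 brain punch per library was made into stranded libraries and sequenced in paired reads. Per the labels, the authors used cutadapt 2.9, STAR 2.7.3a and RSEM 1.3.1 on the mouse genome mm10, and the annotation release is not given in the sources used here. The deposited values are expected counts from RSEM for 55291 genes, with no normalization, and 4.68% of those used were not whole. They were rounded here and tested with edgeR 4.0.16 (filterByExpr, TMM, robust quasi-likelihood fit) on the 12 female DMS libraries. The total expected count per library, given in the report, limits how well low genes are measured. A level is TMM-scaled CPM, with the scaling done on the libraries of each sex alone. A standard error is the absolute log2 fold change divided by the square root of F.

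Gene positions are from GENCODE vM21 (GRCm38). The comparison, the 30 gene lists and the naming rule were chosen with earlier results of these data known. Named are called genes, the 12 smallest p in each direction, up to 5 genes per list with an unadjusted p under 0.05, and Cnr1, Dagla, Faah, Mgll, Drd1, Drd2, Pdyn, Penk, Per2, Npas4, Fos and Arc. Other list members, and Slc17a7, Neurod6, Ttr and Xist, were named after their values were seen, and some list members are not reported here. Alternatives were DESeq2 1.42.0, its size factors in edgeR, no filter, all 4 DMS groups in 1 fit, 1 surrogate variable (sva 3.50.0) and each library left out. The fit without FTL_285 and FTL_292, DESeq2 at its default alpha of 0.1, list counts under each alternative and the motif TGACG were added after seeing the data. The scripts were tested on simulated data. By the study's methods each region of a mouse gave its own library, so the libraries of a group are separate mice. In 12992 genes, chi-square per degree of freedom was at least 3.88 for every pair of libraries in a group, so no 2 of them differed by sampling noise alone.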

Additional observations from a re-analysis of the deposited data

Results flagged for a closer look

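In a group of 6 libraries a highest or lowest library was marked where its gap to the next exceeded Dixon's 95% critical share of the group's range. Over 246 such tests of named genes and summed gene lists 30 were marked, 15 of them in FTL_285, and chance marks about 1 in 20. No cause was tested.

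The vehicle library FTL_285 was above the other 5 vehicle libraries for Exph5 (6.41 CPM against 2.54 to 3.91), Bhlhe40 (40.5 against 27.0 to 29.1), Ep300 (84.9 against 69.1 to 74.2), Grik3 (136 against 98.9 to 112), Zbtb16 (8.64 against 3.002 to 4.86), Adcy1 (298.4 against 199 to 229) and Faah (25.5 against 10.9 to 15.3). It was below them for Drd1 (249.1 CPM against 322.6 to 341.7). Of the summed lists it was above for cortical projection neuron markers (3138 CPM against 2486 to 2685), septum and thalamus markers (136.0 against 40.1 to 46.3) and choroid plexus and ependymal markers (132 against 19.9 to 26.1). It was below for medium spiny neuron markers (17514 CPM against 20276 to 21885), direct pathway markers (617 against 748 to 783), adenosine and P2Y receptors (725 against 836 to 877) and microglia markers (499 against 568 to 605).

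The THC library FTL_292 was above the other THC libraries for septum and thalamus markers (64.6 CPM against 41.1 to 43.9) and for choroid plexus and ependymal markers (80.9 against 19.2 to 30.8). The THC library FTL_291 was above the others for the sum of the immediate early genes (1390 CPM against 1013 to 1068), for Npas4 (15.8 against 7.09 to 9.62), Arc (72.8 against 27.8 to 40.9) and Mgll (206 against 165 to 178). In the vehicle group FTL_287 had the lowest immediate early gene sum (1158 CPM against 1313 to 1375).

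Single genes were marked in other libraries. FTL_296 was highest of the THC libraries for Dagla (94.9 CPM against 72.4 to 79.3) and Retn (2.26 against 1.09 to 1.52) and lowest for Crym (227 against 259 to 273.3). FTL_295 was highest for Spred2 (60.0 CPM against 45.2 to 50.4) and FTL_293 lowest for Kctd4 (14.2 against 15.9 to 16.4). Among vehicle libraries FTL_288 was highest for Pfkfb3 (73.4 CPM against 44.5 to 55.2) and lowest for Lypd1 (63.6 against 77.8 to 85.7), and FTL_286 was lowest for Gnb1 (484 against 513 to 520.5).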

How the results depend on the processing

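The 2 genes called in the female DMS became 25 with DESeq2, 21 with DESeq2 at its default alpha, 11 with 1 surrogate variable, 5 with all 4 DMS groups in 1 fit, 4 without the filter on low counts and 0 without FTL_285 and FTL_292. DESeq2 size factors gave the same 2 genes, and leaving out 1 library in turn gave 0 to 7. Plk3 was among the calls of each of these fits that made any. The cause of these differences was not tested. Genes with an unadjusted p under 0.05 numbered 1406 and stayed between 1177 and 2009 over the alternatives. In the male DMS they went to 857 and for the interaction from 980 to 1700 without the filter, which tests more genes. Interaction calls went from 0 to 3 with DESeq2. No called gene changed sign. Of the 93 named genes 90 kept their sign throughout, and the other 3 were Faah, Drd1 and Penk. Leaving out 1 library, Faah (-0.24) ranged from -0.309 to 0.00393 and was above 0 without FTL_285. Drd1 (-0.01) ranged from -0.0665 to 0.0222 and was above 0 without FTL_286, FTL_287, FTL_288, FTL_290, FTL_292 or FTL_296. Penk (0.00) ranged from -0.0561 to 0.0472, was below 0 without FTL_285, FTL_286, FTL_287, FTL_291 or FTL_294, and was -0.000833 with 1 surrogate variable and -0.0343 without FTL_285 and FTL_292. No paired analysis was made. By the methods the THC and vehicle libraries come from different mice, and the labels pair no THC library with a vehicle library. Depth limits genes near 1 CPM, such as Drd3, Retn and Cartpt.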
